A study of Homo sapiens with 10 samples.

Results

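The 41 genes described here encode proteins of DNA repair and of the DNA damage checkpoint. They form a list of named genes of the homologous recombination, Fanconi, end joining, mismatch, translesion and checkpoint pathways. The list uses no threshold on a measured value, but it was drawn up with earlier results of these data known. All 41 were matched among the 59204 human genes listed, and they lie on 17 chromosomes. Cells of K562, an established human line from chronic myeloid leukaemia, had been labelled for 12 h with 30 µM 4-thiouridine, which newly made RNA takes up in place of uridine. A medium exchange time of 3 h is given for every sample. A chase with 3 mM uridine followed, together with solvent (DMSO), with the BET bromodomain inhibitor JQ1 at 1 µM or with AZ-5576, an inhibitor of the elongation kinase CDK9, at 1 µM. Libraries of RNA 3′ ends were made at 0 h, before any inhibitor, and at 2, 4 and 8 h in each of the 3 arms, which gives 10 libraries with 1 per condition.

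Cells repair a broken chromosome either by joining its ends directly or by copying an intact sister strand. The Fanconi proteins unhook crosslinked strands and hand the break over to recombination, while the kinases ATM and ATR detect damage and halt the cell cycle through CHEK2 and CHEK1. BET proteins bring the transcription machinery to acetylated chromatin, and CDK9 releases RNA polymerase II from its pause near the start of genes. BET inhibitors have been studied for lowering the expression of recombination genes in tumour cells.

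Total reads per library ranged from 10293371 to 16008906, and labelled reads from 2031796 to 3868420. Reads from the fly RNA added to each sample ranged from 1208073 to 2366155 and set the scale between libraries. Fly RNA had been mixed in as 5% of the RNA by mass, so a value per fly read is relative to RNA mass. It shows neither a change in the number of cells nor a change in total RNA per cell. Of 12 erythroid and myeloid markers of K562, 9 had at least 100 reads in every library. Of 12 markers of other cell types, 7 had under 20 reads in every library, among them KRT5 and VWF at 0 in all, while EPCAM (374 to 902 reads) and CD3D (171 to 560) were read in each. Against DMSO, 6 of the 12 K562 markers were lower with AZ-5576 and 7 with JQ1 (edgeR, adjusted p under 0.05). Of all tested genes, 73.3% were lower with AZ-5576 and 16.2% with JQ1. Of the 5 testable markers of other types, 2 (EPCAM and CD3D) were lower with each inhibitor and COL1A1, at 6 to 68 reads, was higher with JQ1. The 12 markers of other types summed to 674 to 1569 reads per library, and their part in the results was not tested. Values per library are given as spike-normalised reads, that is reads per 1000000 fly reads, and are not divided by gene length. A slope is the change of log2 RNA per fly read per hour of chase, and a slope difference is the slope with an inhibitor minus that with DMSO.

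The sequences upstream of 4 members are shown because these members lie at the ends of the range of label loss reported below, FANCF, REV3L and XRCC2 at the fast end and PARP1 at the slow end. Each runs 5′ to 3′ on the minus strand, toward the RefSeq start of the gene (GRCh38.p14), over up to 250 bases and without bases inside the annotated gene. Capitals mark matches on either strand to the CCAAT box (CCAAT), the GC box (GGGCGG) or the TATA box (TATAAA), and overlapping matches are merged. The windows lie at chr11:22625842-22626073 for FANCF, chr6:111483716-111483961 for REV3L, chr7:152676166-152676391 for XRCC2 and chr1:226408094-226408343 for PARP1.
FANCF: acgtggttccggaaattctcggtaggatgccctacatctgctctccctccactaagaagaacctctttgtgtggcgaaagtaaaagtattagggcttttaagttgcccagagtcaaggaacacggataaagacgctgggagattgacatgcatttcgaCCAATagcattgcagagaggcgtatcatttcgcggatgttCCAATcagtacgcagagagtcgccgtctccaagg
REV3L: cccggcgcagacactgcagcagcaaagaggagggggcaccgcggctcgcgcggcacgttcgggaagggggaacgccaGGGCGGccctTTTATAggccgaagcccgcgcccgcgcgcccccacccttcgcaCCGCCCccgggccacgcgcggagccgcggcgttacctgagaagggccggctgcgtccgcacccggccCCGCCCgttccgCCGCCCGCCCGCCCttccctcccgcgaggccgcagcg
XRCC2: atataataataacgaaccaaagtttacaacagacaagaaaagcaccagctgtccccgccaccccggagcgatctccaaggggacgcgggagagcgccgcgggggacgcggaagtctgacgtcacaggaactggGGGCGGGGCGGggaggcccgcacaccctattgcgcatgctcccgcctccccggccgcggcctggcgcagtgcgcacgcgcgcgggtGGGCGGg
PARP1: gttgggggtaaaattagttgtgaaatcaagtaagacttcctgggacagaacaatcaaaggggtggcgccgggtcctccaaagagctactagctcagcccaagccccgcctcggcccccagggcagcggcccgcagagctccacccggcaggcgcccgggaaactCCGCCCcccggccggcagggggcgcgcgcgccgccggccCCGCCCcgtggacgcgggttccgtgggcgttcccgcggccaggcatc
The FANCF window held 2 CCAAT boxes and no GC box, whereas the other 3 windows held GC boxes and no CCAAT box. The TATA match of REV3L lay on the opposite strand. In the GENCODE annotation the FANCF window lies within a non-coding transcript of GAS2 on the other strand, and that of REV3L within the antisense gene TRAF3IP2-AS1.

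Among the 36 members with a RefSeq window, a GC box occurred in 25 (69.4%), against 68.7% of the windows of 8405 genes tested for total RNA and 42.3% of all 27305 windows. A CCAAT box occurred in 15 (41.7%; 36.5% of tested genes, 33.0% of all). The TTTGAA element of cell cycle genes occurred in 4 (11.1%; 8.29% and 13.6%), and an E2F site (TTTGGCGC, TTTGCCGC, TTTCGCGC or TTTCCCGC) in 2, FANCA and FANCC (5.56%; 4.69% and 2.79%). A TATA box was found in REV3L alone (2.78%; 5.04% and 11.1%). These are matches of letters on either strand within 250 bases and say nothing of binding.

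Reads of the 41 genes together made up 0.181% of human reads at 0 h, 0.219% after 8 h in DMSO and 0.145% after 8 h in AZ-5576. Their unlabelled reads, which hold RNA made during the chase and any RNA without a detected label, stood at 8015 spike-normalised reads at 0 h and at 16980 after 8 h in DMSO. The value was 13310 after 8 h in JQ1 and 4454 after 8 h in AZ-5576. In AZ-5576 the unlabelled sum was thus below its 0 h level at 8 h, and in DMSO and JQ1 above it. Labelled RNA of the same genes went from 6788 at 0 h to 3323 after 8 h in AZ-5576, against 2868 with DMSO and 2841 with JQ1. XRCC6, XRCC5 and PARP1 had the most reads (means of 5082, 4069 and 1855 per library). They weigh most in these sums, which therefore do not describe a typical member.

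**Figure D1:**
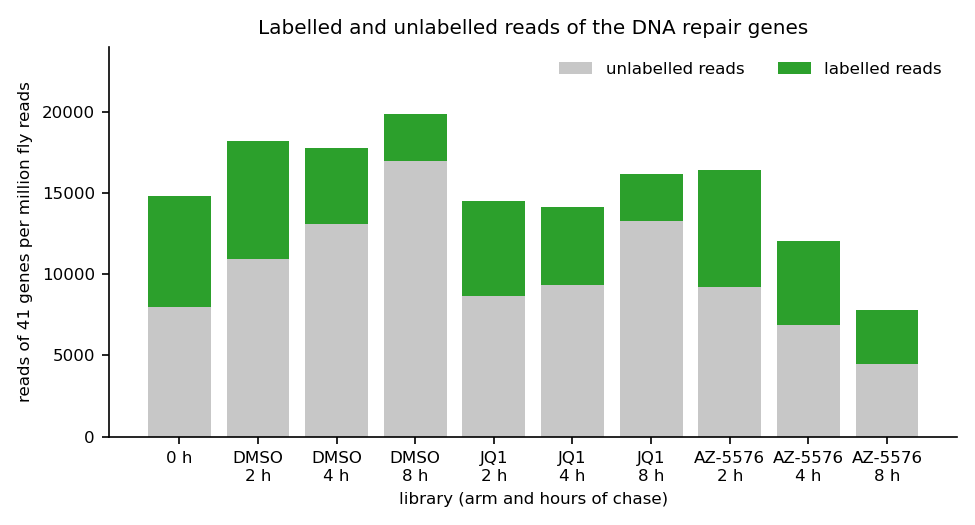
Reads of the 41 repair genes per 1000000 fly reads (vertical axis) in each of the 10 libraries (horizontal axis), split into labelled reads (green) and unlabelled reads (grey), with 1 library per bar. The unlabelled part stands at 16980 after 8 h in DMSO and at 4454 after 8 h in AZ-5576.

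Under CDK9 inhibition by AZ-5576, total RNA of the repair genes fell relative to DMSO in every functional class, scaled by fly reads. All 40 members with enough reads to be tested were lower (edgeR quasi-likelihood test, adjusted p under 0.05), as were 73.3% of the 11797 genes tested, with 0.559% higher. When libraries were scaled by TMM to each other instead, 14 members were lower and 3 higher (XRCC6, PARP1 and XRCC5), against 27.6% lower and 20.6% higher of all genes. The median slope difference of the members was -0.25 log2 units per hour and that of all tested genes -0.19. TMM moved these medians to -0.07 and -0.02, and under either scaling 27 of 40 members were below the all-gene median. LIG4, the ligase of end joining, had 2 to 25 reads per library and was not tested. At 8 h all 41 genes had less total RNA per fly read than the DMSO library at that hour, as had 94.0% of all tested genes, and the median was 22.5% of it, against 32.2% over all tested genes. At 4 h the median was 54.3% (all tested genes 62.9%) and at 2 h 82.1% (84.1%).

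Each condition is a single library, so that p-values measure the scatter of 10 libraries about the fitted lines, and intervals on ratios cover counting error only. Without the AZ-5576 library at 8 h 13 members were lower (33.3% of all genes), and without all 8 h libraries 16 (32.8%). A model with 1 constant difference over the times in place of slopes called none of the 40, and 2.38% of all genes lower and 0.0848% higher (5198 of them at an unadjusted p under 0.05).

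The members of the Fanconi core and its accessory factors, which ubiquitinate the FANCD2 and FANCI pair at crosslinks, had a median slope difference of -0.33 over 7 tested genes (-0.16 under TMM scaling, where 6 of the 7 were lower). Of all tested genes, 27.6% were lower under TMM scaling. FANCF and PALB2, below, were named after their values were seen, since their mean counts were below that set for named genes. FANCF, the adaptor of that core, had 73.0 spike-normalised reads at 0 h, then 105, 73.8 and 83.9 at 2, 4 and 8 h in DMSO. In AZ-5576 it had 45.5, 19.1 and 4.23, the last from 10 reads. The AZ-5576 values were the lower ones at each hour, and the slope difference was -0.52 ± 0.07 (SE, edgeR adjusted p = 8.305e-07), lower than that of any other member tested. FANCE, which links the core to FANCD2, had 168 at 0 h, 233, 238 and 354 in DMSO, and 142, 102 and 41.8 in AZ-5576. It moved upward over the hours in DMSO and downward in AZ-5576, with a slope difference of -0.37 ± 0.04 (edgeR adjusted p = 7.209e-08). FANCC had 52.0 at 0 h, 82.0, 121 and 165 in DMSO, and 67.6, 58.6 and 21.5 in AZ-5576 (slope difference -0.33 ± 0.05, edgeR adjusted p = 1.387e-05). Its call was lost without the AZ-5576 library at 8 h. FANCM, the anchor of the core on DNA, differed by -0.43, FANCG by -0.33, FANCL, the ubiquitin ligase, by -0.29 and FANCA by -0.17. The substrates of the core, FANCD2 and FANCI, each differed by -0.16, and their median turned to 0.01 under TMM scaling.

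In homologous recombination the 5 core genes had a median slope difference of -0.27 (-0.09 under TMM scaling, with 1 of 5 lower). Under that scaling 27.6% of all tested genes were lower and 20.6% higher. PALB2, which bridges BRCA1 and BRCA2, had 35.8 spike-normalised reads at 0 h, 89.6 after 8 h in DMSO and 5.49 after 8 h in AZ-5576, the last from 13 reads. RAD52, an annealing protein, differed by -0.37, RAD54L, a DNA motor protein of recombination, by -0.27, BRCA1 by -0.24 and BRCA2 by -0.21. The 4 genes RAD51C, RAD51D, XRCC2 and XRCC3, whose products act in homologous recombination, differed by -0.13 (XRCC3) to -0.26 (RAD51D), with RAD51C at -0.20 and XRCC2 at -0.22, and none of them passed under TMM scaling. Of the genes that sense and trim breaks, RBBP8, the cofactor that starts resection, had 69.6 at 0 h, 67.0, 127 and 163 in DMSO, and 72.7, 40.2 and 22.4 in AZ-5576 (slope difference -0.35 ± 0.05, edgeR adjusted p = 7.921e-06). RAD50, MRE11 and NBN, which together form the complex that binds broken ends, differed by -0.25, -0.23 and -0.13. RIF1, which shields ends from resection, had 490 at 0 h, 831, 846 and 915 in DMSO, and 508, 340 and 183 in AZ-5576 (slope difference -0.30 ± 0.04, edgeR adjusted p = 2.355e-07). All 3 AZ-5576 values of RIF1 were below the DMSO value of the same hour, and its partner TP53BP1 differed by -0.24.

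MSH6, which recognises mismatched bases, had 459 spike-normalised reads at 0 h, 820, 1096 and 1103 in DMSO, and 572, 411 and 148 in AZ-5576. It was 13.4% of the DMSO library at 8 h (95% counting interval 11.9 to 15.0), with a slope difference of -0.35 ± 0.04 (edgeR adjusted p = 3.659e-07). WRN, a RecQ helicase that unwinds recombination intermediates, had 44.6 at 0 h, 106, 121 and 175 in DMSO, and 54.4, 22.5 and 26.2 in AZ-5576 (slope difference -0.39 ± 0.05, edgeR adjusted p = 2.051e-06). For WRN the AZ-5576 libraries at 4 and 8 h lay below the 0 h level and every DMSO library above it. Its relative BLM differed by -0.28. The translesion polymerase genes differed by -0.12 (REV3L) to -0.29 (REV1), with POLK at -0.25 and POLH at -0.24, and POLQ, the polymerase of theta-mediated joining, by -0.32, and none of these 5 passed under TMM scaling. Of the kinases, CHEK2 differed by -0.28, ATM by -0.18, ATR by -0.17 and CHEK1 by -0.15, and under TMM scaling 1 of the 4 was lower. Among all tested genes, TMM scaling gave 27.6% lower and 20.6% higher.

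The differences nearest to 0 were those of XRCC6, PARP1 and XRCC5, which were also the 3 members with the most reads. XRCC6 (Ku70), which with XRCC5 (Ku80) forms the ring that binds DNA ends, had 3602 spike-normalised reads at 0 h, 3919, 3342 and 3395 in DMSO, and 4142, 2867 and 2213 in AZ-5576. Its AZ-5576 library was above DMSO at 2 h and below it at 4 and 8 h, with a slope difference of -0.07 ± 0.03 (edgeR adjusted p = 0.041) that turned to 0.11 under TMM scaling. PARP1, which marks breaks with ADP-ribose chains, had 1166 at 0 h, 1322, 1209 and 1349 in DMSO, and 1178, 1095 and 744 in AZ-5576 (slope difference -0.09 ± 0.03, edgeR adjusted p = 0.0051; 0.08 under TMM scaling). XRCC5 had 2668 at 0 h, 3124, 3025 and 3147 in DMSO, and 3063, 2256 and 1555 in AZ-5576 (slope difference -0.12 ± 0.03, edgeR adjusted p = 7.054e-04; 0.06 under TMM scaling). At 8 h these genes still had 65.2% (XRCC6), 55.1% (PARP1) and 49.4% (XRCC5) of the DMSO library. All 3 calls were lost without the AZ-5576 library at 8 h, that of PARP1 also without the DMSO library at 8 h, and that of XRCC6 also in 5 other fits that left out 1 library or the count filter. PRKDC, the kinase that Ku recruits, differed by -0.14. Across the 40 tested members the slope difference went with the mean read count (Pearson r 0.64, Spearman rho 0.61), a description over genes that share the same libraries.

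**Figure D2:**
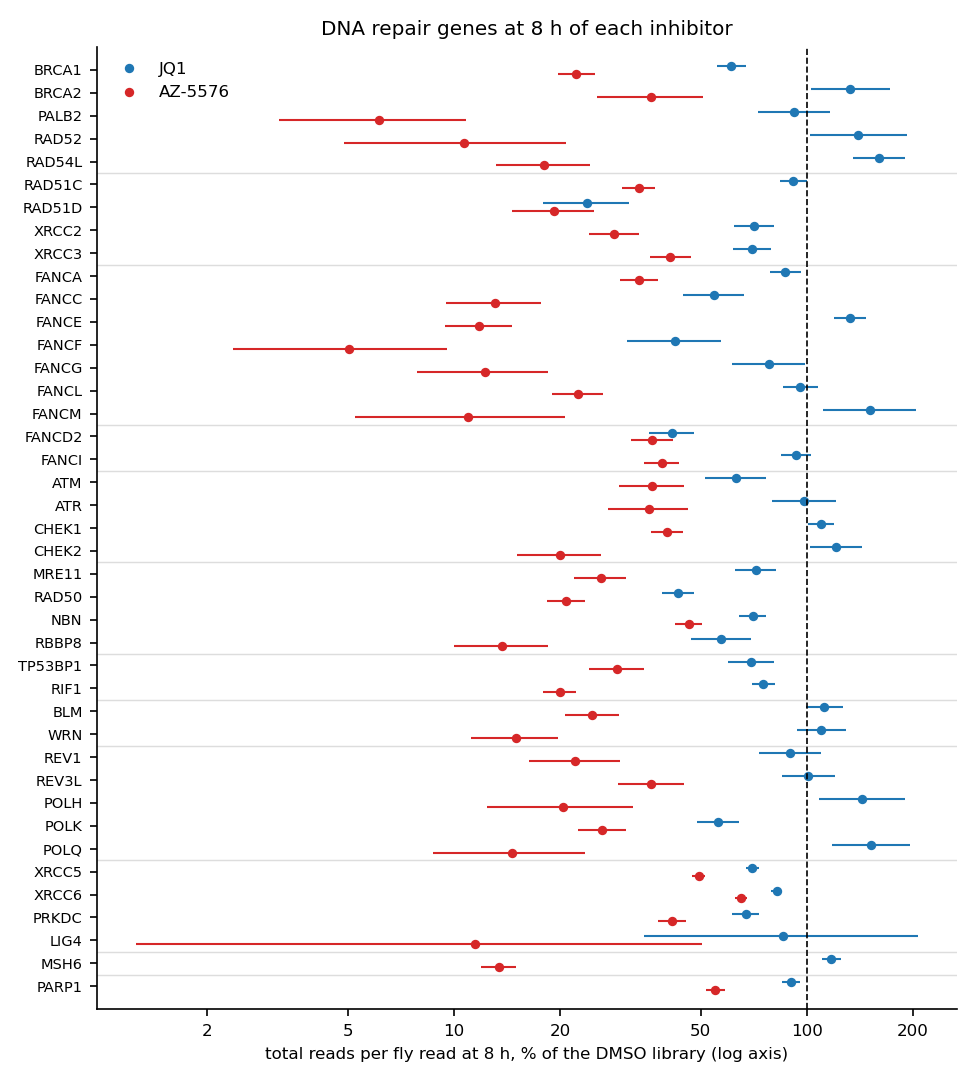
Total reads per fly read at 8 h as a percentage of the DMSO library at 8 h (horizontal log axis) for each of the 41 genes (vertical axis, grouped by function with grey lines), in AZ-5576 (red) and JQ1 (blue), with exact 95% intervals for counting error. With AZ-5576 the genes lie between 5.04% (FANCF) and 65.2% (XRCC6), and with JQ1 between 23.8% (RAD51D) and 159.9% (RAD54L). Under TMM scaling the fitted slope differences of XRCC6, PARP1 and XRCC5 with AZ-5576 are above 0.

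Compared with the 0 h library rather than with DMSO, total RNA in AZ-5576 fell over the hours for 36 of 40 members (69.2% of all tested genes, with 0.356% higher). Under TMM scaling 6 were lower and 1 higher (13.4% and 8.26% of all genes). The slopes of RAD54L, POLK, ATM and POLH did not pass the test, with -0.08, -0.07, -0.01 and -0.17 log2 units per hour.

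BET inhibition by JQ1 gave a smaller and mixed picture. Relative to DMSO 5 of 40 members were lower and none higher, against 16.2% lower and 1.79% higher among all tested genes, and the median slope difference was -0.04 (all genes -0.05), which turned to 0.01 under TMM scaling. The 5 genes were RAD51D, FANCF, RAD50, FANCD2 and POLK. Under TMM scaling 3 members were lower and 1, FANCE, higher (7.72% and 5.49% of all genes). At 2 h the median over the 41 genes was 77.05% of the DMSO library (all tested genes 79.8%), and 24 genes had a counting interval wholly below it and none above (56.3% and 4.65% of all tested genes). At 4 h the median was 73.0% (82.1%), with 27 intervals below and 2 above (53.3% and 9.54%). At 8 h it was 87.0% (80.5%), with 22 below and 10 above (55.5% and 15.3%).

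RAD51D, a recombination gene, had 119 spike-normalised reads at 0 h, 124, 107 and 157 at 2, 4 and 8 h in DMSO, and 91.1, 72.9 and 37.2 in JQ1. Its JQ1 values were below all DMSO values, and at 8 h it had 23.8% of the DMSO library (interval 17.9 to 31.3), close to the 19.2% (14.6 to 25.0) with AZ-5576. The slope difference was -0.24 ± 0.05 (edgeR adjusted p = 0.00117). FANCF had 47.4, 29.6 and 35.5 in JQ1, below its DMSO values given above, with a slope difference of -0.20 ± 0.06 (edgeR adjusted p = 0.0178). RAD50 had 350 at 0 h, 489, 476 and 699 in DMSO, and 372, 276 and 302 in JQ1 (slope difference -0.16 ± 0.04, edgeR adjusted p = 0.00449). FANCD2 had 249 at 0 h, 330, 320 and 360 in DMSO, and 256, 221 and 149 in JQ1 (slope difference -0.16 ± 0.04, edgeR adjusted p = 0.00741). The JQ1 values of RAD50 and FANCD2, and of POLK below, did not overlap those of DMSO at 2 to 8 h. That was also so for RIF1, NBN, TP53BP1 and XRCC3, which did not pass the test. The share of all genes without such overlap was not counted. At single hours, 56.3%, 53.3% and 55.5% of all tested genes had a JQ1 counting interval below DMSO (2, 4 and 8 h). POLK, a polymerase that extends from damaged bases, had 116 at 0 h, 209, 274 and 345 in DMSO, and 139, 108 and 194 in JQ1 (slope difference -0.15 ± 0.04, edgeR adjusted p = 0.02004).

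RBBP8 (JQ1 64.2, 54.3 and 93.4 spike-normalised reads at 2, 4 and 8 h) and FANCC (80.5, 65.2 and 89.9) had slope differences of -0.13 ± 0.05 in each case and did not pass the test (edgeR adjusted p = 0.0637 and 0.0812). At the other end, RAD54L had 49.3 at 0 h, 56.3, 55.6 and 129 in DMSO, and 52.4, 38.4 and 207 in JQ1 (slope difference 0.06 ± 0.06, edgeR adjusted p = 0.526). The JQ1 values of RAD54L were below DMSO at 2 and 4 h and above it at 8 h. FANCE had 244, 291 and 470 in JQ1, above DMSO at each hour (slope difference 0.05 ± 0.04, edgeR adjusted p = 0.300), and passed the test only under TMM scaling (0.11). REV3L, the catalytic subunit of polymerase zeta, had 121 at 0 h, 170, 112 and 151 in DMSO, and 181, 145 and 153 in JQ1 (slope difference 0.02 ± 0.05, edgeR adjusted p = 0.818). Without the JQ1 library at 8 h the calls of RAD51D and FANCD2 were lost. The count of 5 rested on the DMSO library at 8 h, without which none passed the test and 1.43% of all genes were lower (1801 at an unadjusted p under 0.05), while the members' median slope difference was -0.07. It was 3 without the JQ1 library at 4 h (10.6% of all genes), 8 without the AZ-5576 library at 2 h (20.7%), and 0 with a constant difference over the times, which called 0.0% of all genes (1081 at an unadjusted p under 0.05).

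**Figure D3:**
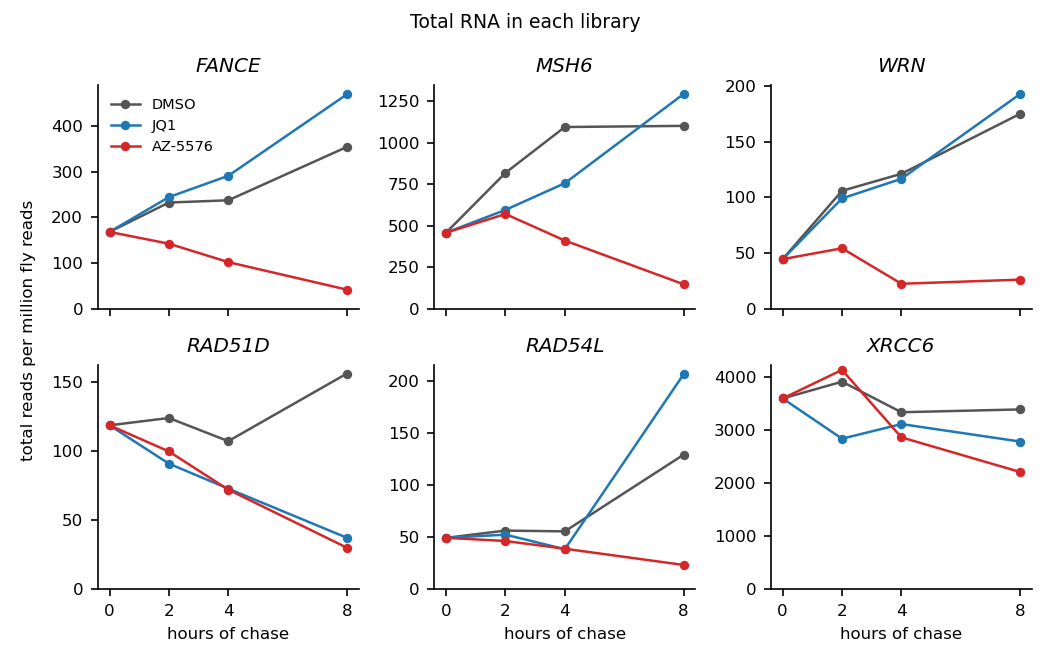
Total spike-normalised reads (vertical axis, from 0, a different scale in each panel) against hours of chase (horizontal axis) for 6 genes in DMSO (grey), JQ1 (blue) and AZ-5576 (red), with 1 library per point and the 0 h library shared. RAD51D is at 37.2 in JQ1 and 30.0 in AZ-5576 at 8 h, against 157 in DMSO, while for FANCE and RAD54L the JQ1 point at 8 h is the highest of the 3.

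The inhibitors were also compared with each other at the same dose and hours. AZ-5576 gave lower slopes than JQ1 for 31 of 40 members and a higher slope for none (55.0% and 0.822% of all tested genes). Under TMM scaling 14 were lower and 6 higher (26.5% and 21.8%). The difference was -0.48 ± 0.06 for PALB2 (edgeR adjusted p = 1.124e-06), and -0.42 ± 0.04 for FANCE (edgeR adjusted p = 2.317e-08). For 9 members it did not pass the test. These include FANCD2 (-0.004 ± 0.04), RAD51D (-0.03 ± 0.05) and XRCC6 (-0.02 ± 0.03). The count was 8 without the AZ-5576 library at 8 h (16.6% of all genes) and 8 without the JQ1 library at 8 h (22.2%), and 0 with a constant difference (1.17% of all genes lower, 0.017% higher and 2389 at an unadjusted p under 0.05).

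In DMSO itself, total RNA rose during the chase for 16 of 40 members and fell for none, against 24.5% higher and 3.78% lower among all tested genes. Under TMM scaling 12 were higher and 2 lower (17.1% and 15.5%). The slopes of WRN (0.20 ± 0.05 log2 units per hour), RAD54L (0.19 ± 0.05), BLM (0.18 ± 0.04), POLK (0.18 ± 0.04) and ATM (0.17 ± 0.04) were the 5 steepest. Both RecQ helicase genes rose, also under TMM scaling, and so did both end protection genes, which did not pass under it, while none of RAD51C, RAD51D, XRCC2 and XRCC3 and none of the 3 tested end joining genes passed the test. The call rested on the DMSO library at 8 h, since 1 member passed without it (3.89% of all genes higher), and on the 0 h library, since 7 passed without that (16.7%). In JQ1, 8 members rose from 0 h and 4 fell (15.0% and 17.3% of all genes), the 4 being RAD51D, FANCF, FANCD2 and XRCC2. Under TMM scaling 10 rose and 8 fell (20.2% and 19.6%).

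Labelled RNA shows how fast the RNA made before the chase was lost. In DMSO it fell for 34 of the 36 members with enough labelled reads, against 88.3% of 8817 genes tested (0.0454% higher), with a median slope of -0.22 log2 units per hour in the members and in all genes. Under TMM scaling, which sets the typical gene near 0, 7 were lower and 3 higher (26.3% and 22.9% of all genes). PALB2, RAD52, FANCM, POLH and LIG4 had too few labelled reads to be tested, and the slopes of FANCG and CHEK2 did not pass. Without the DMSO library at 8 h 11 members passed, against 37.6% of all genes. The slopes are not corrected for growth, and the members' labelled sum per 1000000 fly reads was still 7231 at 2 h in DMSO, above the 6788 at 0 h, so that half-lives (1 divided by the slope) compare genes rather than give absolute values.

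FANCF kept 76.1%, 18.0% and 3.81% of its 0 h labelled RNA per fly read at 2, 4 and 8 h in DMSO, the last from 3 reads. REV3L kept 82.1%, 20.0% and 4.07%, the last from 5 reads, and XRCC2, a recombination gene, 83.4%, 36.0% and 7.78%. RAD51D kept 75.7%, 35.2% and 10.9%. These 4 genes had fallen below 40% by 4 h. So had others with slower fitted loss, among them RAD54L (30.6%, half-life 4.17 h) and ATR (36.05%, 4.60 h). The half-lives of the 4 were 1.53 h (FANCF, 95% interval 1.18 to 2.21), 1.58 h (REV3L, 1.28 to 2.04), 2.04 h (XRCC2, 1.70 to 2.54) and 2.38 h (RAD51D, 1.83 to 3.40). At the slow end, PARP1 kept 105.5%, 77.7% and 60.7%, XRCC6 116.6%, 76.8% and 60.7%, and XRCC5 114.7%, 83.8% and 55.1%. Their half-lives were 9.45 h (5.89 to 23.9), 8.56 h (5.67 to 17.5) and 7.72 h (5.25 to 14.5), and these slopes turned positive under TMM scaling (0.11, 0.10 and 0.08). CHEK2 kept 165.1%, 77.6% and 67.5%, with 46 labelled reads at 0 h and a slope of -0.12 ± 0.06 (edgeR adjusted p = 0.0732). These genes were picked for their slopes, so their half-lives describe the range and test no difference. Between these ends lay, among others, FANCE with a half-life of 2.77 h, MSH6 with 3.52 h, BRCA1 with 3.66 h, RAD50 with 4.21 h and CHEK1 with 5.20 h.

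With AZ-5576, labelled RNA was lost more slowly than in DMSO for 2 of 36 members, REV3L and XRCC2, and faster for none, against 3.53% slower and 1.22% faster among all tested genes. TMM scaling gave 2 slower and 1 faster (2.68% and 3.75% of all genes). REV3L kept 66.5%, 67.5% and 29.7% at 2, 4 and 8 h in AZ-5576, against the 82.1%, 20.0% and 4.07% in DMSO. Its labelled reads were thus lower at 2 h and higher at 4 and 8 h, with 49 reads at 8 h against 5 in DMSO and a slope difference of 0.34 ± 0.07 (edgeR adjusted p = 6.939e-04). The total RNA of REV3L at 8 h in AZ-5576 was 36.3% of DMSO (29.2 to 44.9), so its labelled and total RNA differed in opposite directions there. Such opposite directions were not particular to REV3L. In that library labelled RNA was above DMSO for 25 members and below it for 15, while total RNA was below for all 41. The labelled median was 117.5% of DMSO over the members and 121.4% over all tested genes. XRCC2 kept 83.5%, 49.1% and 21.4% in AZ-5576, with 118 labelled reads at 8 h against 32 in DMSO (slope difference 0.15 ± 0.05, edgeR adjusted p = 0.0365). The REV3L call was lost without the DMSO library at 8 h (adjusted p = 0.277, edgeR) and without the AZ-5576 library at 8 h (0.323, edgeR). The XRCC2 call was lost in 8 of the 10 fits that left out 1 library and under DESeq2. FANCF, with 75.8%, 22.9% and 3.79% in AZ-5576, followed nearly the same course as in DMSO, and so did RAD51D with 64.5%, 39.3% and 10.7%. Their slope differences had wide errors, 0.02 ± 0.12 and -0.002 ± 0.07, and did not pass the test.

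**Figure D4:**
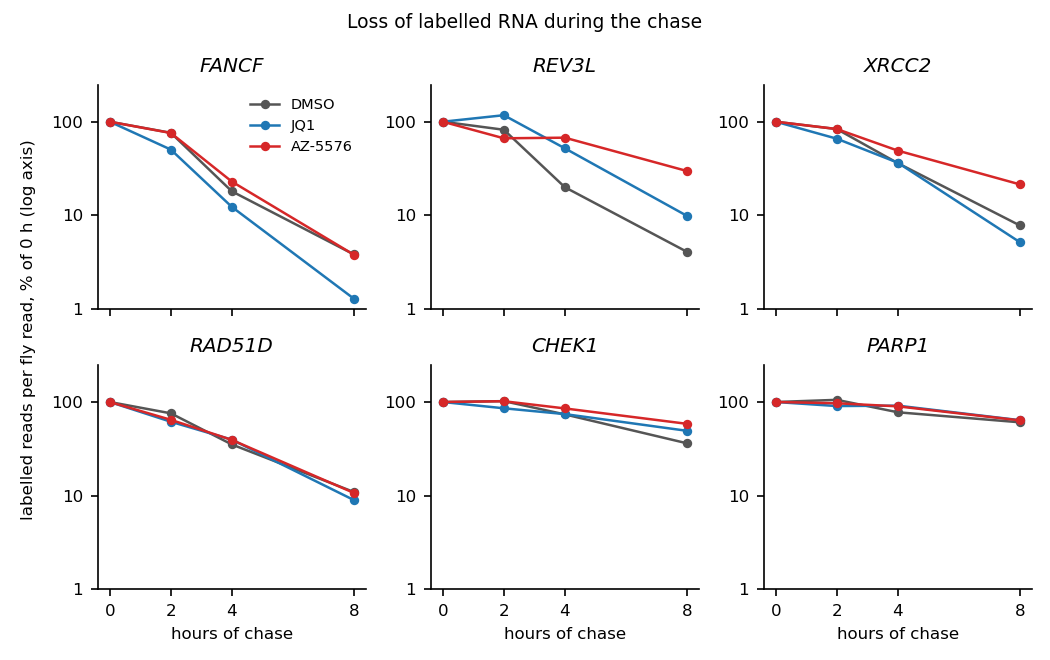
Labelled reads per fly read as a percentage of the 0 h library (vertical log axis) against hours of chase (horizontal axis) for 6 genes in DMSO (grey), JQ1 (blue) and AZ-5576 (red), with 1 library per point. At 8 h REV3L stands at 4.07% in DMSO and 29.7% in AZ-5576, XRCC2 at 7.78% and 21.4%, and PARP1 at 60.7% and 63.6%.

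With JQ1, the loss of labelled RNA differed from DMSO for none of the 36 members by edgeR or by DESeq2, against 0.352% faster and 0.318% slower among all genes. By edgeR, 657 of all 8817 genes had an unadjusted p under 0.05. Under TMM scaling none of the 36 passed either (0.386% faster and 0.646% slower of all genes). REV3L kept 117.4%, 52.0% and 9.87% of its 0 h label in JQ1, above DMSO at each hour, with a slope difference of 0.22 ± 0.08 (edgeR adjusted p = 0.280). XRCC2 kept 65.8%, 36.4% and 5.16% and RAD51D 61.5%, 39.6% and 8.96%, each below its DMSO value at 2 and 8 h. FANCF kept 50.3%, 12.3% and 1.28%, the last from 1 read. Between the inhibitors, labelled XRCC2 (0.21 ± 0.05, edgeR adjusted p = 0.00207) and XRCC3 (0.16 ± 0.05, edgeR adjusted p = 0.0281) were lost more slowly in AZ-5576 than in JQ1, and none faster (4.53% and 1.03% of all genes). Under TMM scaling 1 was slower and 1 faster (1.78% and 3.6%).

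**Figure D5:**
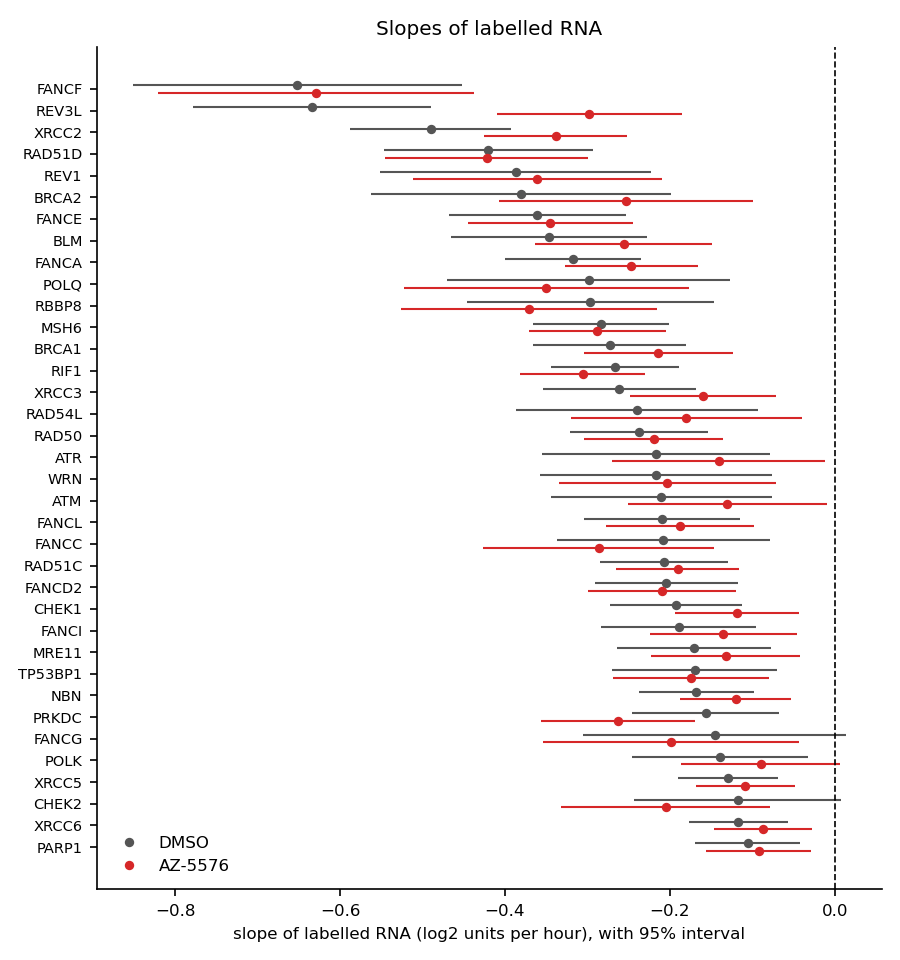
Slope of labelled RNA in log2 units per hour (horizontal axis) for the 36 tested members (vertical axis, ordered by the DMSO slope) in DMSO (grey) and AZ-5576 (red), with 95% intervals from the fit. The DMSO slopes run from -0.65 (FANCF) to -0.11 (PARP1), and REV3L has slopes of -0.63 in DMSO and -0.30 in AZ-5576. Under TMM scaling the DMSO slopes of PARP1, XRCC6 and XRCC5 are above 0.

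The labelled share of a gene's reads does not depend on the scale between libraries. Over the 41 genes together it was 45.9% at 0 h, 14.4% after 8 h with DMSO, 17.6% with JQ1 and 42.7% with AZ-5576, against 32.0%, 13.2%, 14.7% and 25.5% over all genes. In AZ-5576 this pooled share, to which the abundant XRCC5, XRCC6 and PARP1 contribute most reads, was 43.9% at 2 h and 42.8% at 4 h. The median of the members' own shares was 56.3% at 0 h and then, with AZ-5576, 51.9% at 2 h, 45.8% at 4 h and 41.4% at 8 h. The DMSO medians were 44.1%, 21.9% and 8.44% and the JQ1 medians 41.8%, 32.1% and 10.98%. RIF1 (79.2%, exact binomial interval 76.0 to 82.1), FANCL (72.2%, 66.2 to 77.8) and MRE11 (71.1%, 64.3 to 77.3) had the highest shares at 0 h among members with at least 100 reads. PRKDC (13.9%, 11.7 to 16.3), FANCI (25.8%, 22.4 to 29.5) and XRCC6 (32.6%, 31.3 to 33.8) had the lowest. After 8 h in AZ-5576 the share of MRE11 was 68.4%, that of XRCC2 55.1% and that of REV3L 37.7%, where the DMSO library had 13.8%, 5.71% and 1.87%. PRKDC differed less, with 10.6% in AZ-5576 and 7.92% in DMSO.

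A further 115 repair genes outside the 41 were counted for comparison, of which 108 were tested for total RNA. With AZ-5576, 94 were lower and none higher, against 73.3% and 0.559% of all tested genes, with a median slope difference of -0.22 (all genes -0.19). Under TMM scaling 41 were lower and 10 higher (27.6% and 20.6% of all genes). By pathway, beside the same 73.3%, the lower genes were 19 of 20 in recombination and resolution, 10 of 14 in crosslink repair and 21 of 24 in checkpoint signalling. They were also 7 of 10 in end joining, 5 of 6 in mismatch repair, 22 of 24 in excision repair and 10 of 10 in translesion synthesis. Among them RMI1, a partner of BLM, was at 6.04% of DMSO at 8 h (slope difference -0.50 ± 0.06, edgeR adjusted p = 1.163e-07), and ERCC6, which acts at stalled RNA polymerases, at 4.01% from 7 reads (-0.58 ± 0.08, edgeR adjusted p = 2.702e-06). With JQ1, 18 were lower and 1 higher (16.2% and 1.79% of all tested genes), and under TMM scaling 6 and 3 (7.72% and 5.49%). The 1 gene higher under fly scaling was H2AX, the histone phosphorylated at breaks, at 237.5% of DMSO at 8 h (0.15 ± 0.04, edgeR adjusted p = 0.00934). SMARCAL1, a fork remodelling enzyme, was at 22.2% (-0.26 ± 0.07, edgeR adjusted p = 0.0148). For labelled RNA with AZ-5576, 2 of 87 were lost more slowly and none faster (3.53% and 1.22% of all tested genes). Under TMM scaling the counts were 2 and 3 (2.68% and 3.75%). For scale, 36 of 40 DNA replication genes (median -0.19) and 31 of 32 mitosis genes (median -0.26) were lower with AZ-5576, beside 73.3% of all tested genes. Under TMM scaling 8 (8 higher) and 19 (2 higher) were, beside 27.6% lower and 20.6% higher of all genes.

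The members span 2.952 kb (FANCF) to 327.743 kb (FANCC) of the genome in the GENCODE annotation, with a median of 78.3 kb, against 30.9 kb for the coding genes tested. Across members the slope difference with AZ-5576 had a Pearson r of 0.26 and a Spearman rho of 0.04 with gene span (n = 40), a description over genes that share the same libraries. FANCF, the shortest member (chr11:22622890-22625841, minus strand), had the lowest slope difference, and XRCC6 (chr22:41621119-41664048, plus strand; 42.930 kb) the highest. A coding gene in the opposite direction started within 1000 bases of the start of 14 members (34.1%), against 10.9% of 9823 tested coding genes. Among these pairs PRKDC and MCM4 lay 2 bases apart, LIG4 and ABHD13 11, XRCC6 and DESI1 23 and BRCA1 and NBR1 236.

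At the last 500 bases, where 3′ reads fall, 16 members overlap another annotated gene, mostly on the opposite strand. The sources used here do not say whether counting used the strand, so these reads cannot be told apart with certainty. The neighbour had more reads than the member for REV1 (EIF5B, 22062 reads over all libraries against 1265), RAD54L (LRRC41, 11680 against 1135), POLH (GTPBP2, 4101 against 541), TP53BP1 (TUBGCP4, 6353 against 2514) and XRCC3 (KLC1, 5203 against 4542). Processed copies of PARP1 and XRCC6 also had reads, 1224 for PARP1P1 against 18546 for PARP1 and 510 for XRCC6P2 against 50821 for XRCC6.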

How the data were processed

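The authors deposited gene-level tables of raw counts for all human reads, for labelled reads and for fly reads. The submitters' processing notes name Trim Galore 0.6.5, bcl2fastq 2.17.1.14, bedtools and the builds hg38 and dm6. The aligner, the annotation, the use of strand and the rule for calling a read labelled are not given in the sources used here.

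Counts were fitted in edgeR 4.0.16 (R 4.3.3) with a quasi-likelihood model of 1 common 0 h level and 1 slope per arm over all 10 libraries (6 residual degrees of freedom). The fly read totals set the scale, genes averaging 20 or more reads were tested (11797 for total and 8817 for labelled RNA), and p-values were adjusted by Benjamini and Hochberg over all genes tested at 0.05. The script was tested on simulated data. Symbols were matched for 55381 of the 59204 identifiers. Intervals on ratios and shares are exact at 95% and, since reads carry no molecular identifiers, cover counting error only. A count of 0 allows up to 3 reads. Reads at 3′ ends are not divided by gene length.

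The members and the lists were chosen with earlier results of these data known. The genes named by rule were, among members with a mean total count of at least 100, the 6 lowest and 3 highest slope differences for each inhibitor. For labelled RNA they were the 4 steepest and 4 flattest DMSO slopes (mean labelled count of at least 20), and the 3 highest and 3 lowest labelled shares at 0 h. Of each other list, up to 2 genes a direction were eligible. Slopes against 0 h in AZ-5576 and JQ1 were added later. DESeq2 1.42.0, TMM scaling, other count filters, a constant difference over times and fits without single libraries were alternatives. Promoter windows came from RefSeq (GRCh38.p14) and positions from GENCODE v29, on the assembly version hg38 names.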

Additional observations from a re-analysis of the deposited data

How the results depend on the processing

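Replicates could not be paired because each condition has 1 library and the labels carry no replicate numbers. Among the fits, the model with a constant difference over the times matched the arms by hour. The 7 counts of members past the threshold were recomputed under each alternative that applied. TMM scaling gave 17 in place of 40 for AZ-5576 against DMSO, 20 in place of 31 for AZ-5576 against JQ1, and 10 in place of 34 for label loss in DMSO. It turned the slopes of XRCC6, PARP1 and XRCC5 positive, to 0.108, 0.0824 and 0.0572 for AZ-5576 against DMSO in total RNA, and to 0.0969, 0.106 and 0.0838 for labelled RNA in DMSO. Without all 8 h libraries the counts were 16 for AZ-5576 and 2 for JQ1 against DMSO, 3 between the inhibitors, 2 over time in DMSO, 6 for label loss in DMSO and 0 for labelled RNA with AZ-5576. A constant difference over the times gave 0 for each of the 3 comparisons of total RNA (4 residual degrees of freedom). Fits of only the arms compared gave 8 in place of 5 for JQ1. For labelled RNA with AZ-5576 they gave 1 in place of 2, as did no count filter and DESeq2. When single libraries were left out, the counts ran from 13 to 40 for AZ-5576, 0 to 8 for JQ1, 8 to 33 between the inhibitors, 1 to 20 over time in DMSO, 11 to 34 for label loss, 0 to 2 for labelled RNA with AZ-5576, and 0 in each for labelled RNA with JQ1. Libraries at 8 h gave the lowest of these. The cause of each change was not tested, apart from the fewer libraries that leaving them out implies. Of 113 recomputed counts 80 stayed within 1.5 times, 31 were lower and 2 higher. Low counts limit FANCF, PALB2, RAD52, FANCM, POLH and LIG4.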
